A study of Mus musculus with 24 samples.

Results

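The most abundant transcripts of the mouse heart were taken as the 300 singly printed probes with the highest signal in ischemic, reperfused tissue. The spotted array held 16463 mouse probes. The rule used probes printed on 1 spot only, of which there were 16451. For each, foreground minus background in the channel of the ischemia-reperfusion (IR) RNA was averaged over all 24 arrays, and the 300 highest were kept. The members were thus chosen by their measured IR signal. The 12 probes printed on 17 spots could not be chosen. They count among the other probes, of which the brightest had a mean IR signal of 411 units. No file gives a gene for a probe, and a search of the RefSeq gene table matched 0 IDs. The members are therefore called by their rank, from 1 for the highest signal, with no more than 4 probe IDs. For the same reason, the heart label could not be checked against its marker genes.

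The working heart devotes much of its messenger RNA to a small number of genes. Among the best known are genes for the contractile proteins of the sarcomere and for the mitochondrial machinery that supplies them with ATP. When a coronary artery is closed and reopened, cardiomyocytes die from the lack of oxygen and again from its return. Conditioning is a series of brief closures, applied around the long one, that is known to limit this injury.

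All hearts came from C57BL/6 mice and had 40 min of coronary occlusion followed by 60 min of reperfusion. Conditioned hearts additionally underwent 3 short cycles, each 1 min of ischemia followed by 1 min of flow. The cycles came 10 min before ischemia in PreC, 1 min into reperfusion in PostC and 30 min into reperfusion in Post30. NonIschemic was the region of IR hearts outside the ischemic zone, so no group holds a heart without occlusion. Each array set the RNA of 1 group against IR RNA, which came from the ischemic zone. A group had 6 arrays, which were 3 replicate numbers in both dye orientations, and the orientations were averaged to 1 extract pair, so that n = 3. Ratios are the group's RNA over IR RNA, after background correction and loess, on the log2 scale. Their direction is likely and not settled, because it rests on the channel numbering of the files. In tissue RNA, fewer cells of a type and less RNA per cell cannot be told apart.

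Signal fell steeply with rank. The probe of rank 1 had a mean IR signal of 982 scanner units, with a lowest of 563, a median of 1072 and a highest of 1348 over the 24 arrays. Rank 2 lay between 381 and 1174 with a median of 923. Rank 3 lay between 396 and 1127 with a median of 871. These 3 probes were the brightest by mean, and their ranges over arrays overlapped widely. The median over the 300 members was 146 units, against 0.782 over the other mouse probes. At the edge of the list the signal changed little, from 75.8 and 75.6 for the last 2 members to 75.5 and 75.3 for the next 2 probes. These values chose the members and are given as a description.

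**Figure D1:**
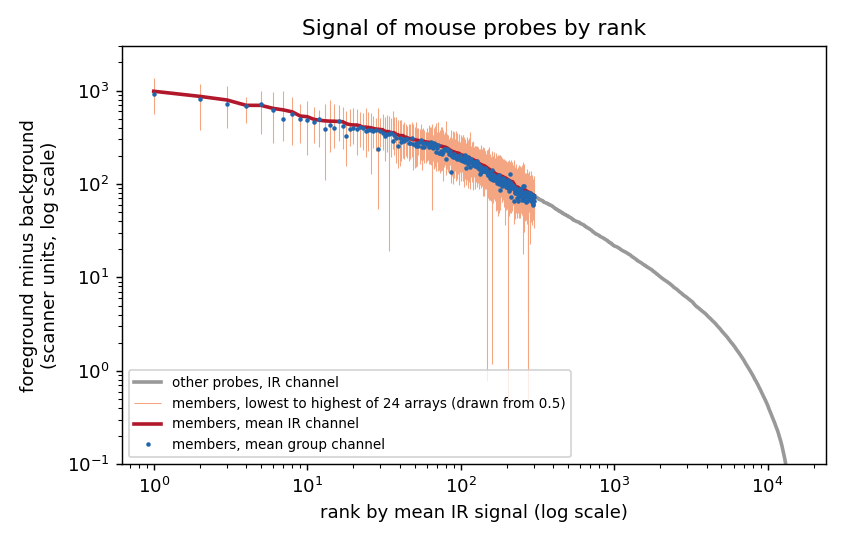
Mean foreground minus background of mouse probes in scanner units (log scale) against rank by mean IR signal (log scale), with the members' range over 24 arrays as vertical lines and their mean in the group's channel as points. The members run from 982 units at rank 1 to 75.6 at rank 300, and the signal goes on falling without a break beyond them. Values near or under 0 have no place on the log axis and are cut off.

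The 300 members held 46.8% of the summed signal of mouse probes in the IR channel on average, with 42.7% to 51.2% on single arrays. The 100 brightest held 27.6% on average and the 10 brightest 5.48%. No member spot carried a quality mark. All but 3 members exceeded the level of the empty spots (their 95th percentile) on 24 of 24 arrays. Ranks 148, 203 and 275 did so on 23 of 24 arrays, in both channels, and their IR signal on the remaining array was 0.784, 0.168 and -0.54 units. The highest intensity of an array was reached by 1 spot only, in each channel. The intensities carry decimals and seldom tie, so this count cannot show whether spots reached the upper limit.

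The group's channel, which the rule did not use, ranked much the same probes highest. When the list was drawn from that channel instead, 289 of the 300 members were kept. By mean signal in their own group's channel, 14 members fell outside the 300 highest in NonIschemic, 15 in PreC, 14 in PostC and 10 in Post30. The farthest was rank 214, which stood at rank 494 in the NonIschemic channel and between 216 and 247 in the channels of the conditioned groups. On single arrays between 270 and 287 of the 300 highest probes of the group's channel were members, against 277 to 289 in the IR channel.

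The share of signal held by the members was compared between the channels without any loess step. In the NonIschemic channel it was 48.1% ± 2.0 (SD, n = 3). The PreC, PostC and Post30 channels gave 46.8% ± 1.0, 46.9% ± 2.1 and 47.5% ± 1.0. The IR channels of the same arrays gave 47.0% ± 2.0, 46.7% ± 2.2, 46.1% ± 2.0 and 47.3% ± 1.4. The log2 ratio of the group's share over the IR share was 0.033 ± 0.041 in NonIschemic and 0.0025 ± 0.035 in PreC (SD, n = 3). For PostC it was 0.023 ± 0.004 and for Post30 0.0062 ± 0.016. In PostC the pairs lay at 0.019, 0.022 and 0.027. The mean exceeded its spread in PostC only, and without background subtraction it was -0.007 there. These shares moved more with the dye than with the group. In the group's channel they were 48.5% to 53.5% in Cy5 and 41.4% to 46.4% in Cy3, which do not overlap. In the IR channel they were 46.1% to 51.2% in Cy5 and 42.7% to 47.6% in Cy3, which do overlap.

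After loess the members as a body lay within 0.02 of the level of IR in every group, which follows from the normalization, since loess centres each array at every intensity. The mean of the pair medians was 0.009 ± 0.003 in NonIschemic and 0.015 ± 0.015 in PreC (SD, n = 3). It was 0.009 ± 0.007 in PostC and 0.007 ± 0.013 in Post30. With each array centred on its median alone, the same values were -0.02 ± 0.16, -0.22 ± 0.04, -0.17 ± 0.11 and -0.24 ± 0.30. Under that scaling the pairs were -0.17, -0.26 and -0.23 in PreC and -0.30, -0.11 and -0.11 in PostC. In Post30 they were -0.55, 0.05 and -0.20, and in NonIschemic -0.08, 0.16 and -0.14. Both pairs above 0 carried replicate number 2. No direction of the members as a body can therefore be given: the mean turned from above 0 to below 0 in all 4 groups with the scaling, and under median centring it exceeded its spread in PreC and PostC.

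**Figure D2:**
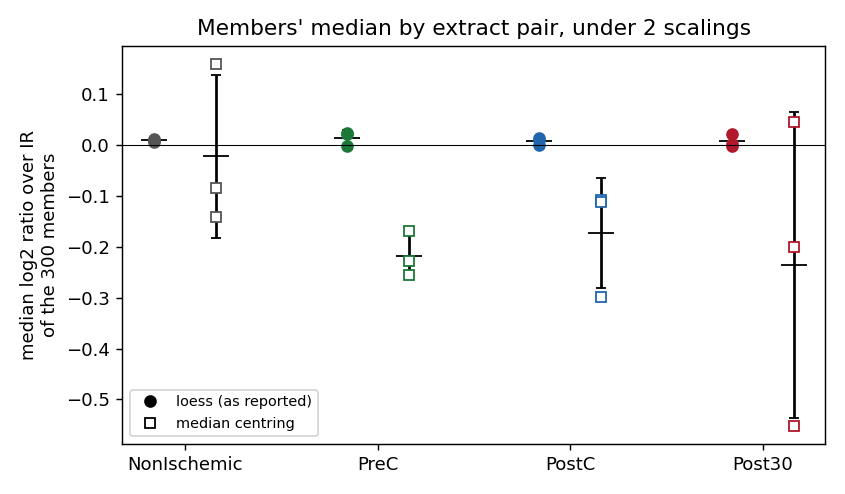
Median log2 ratio over IR of the 300 members (vertical axis) by group, 1 point per extract pair, under loess (filled) and median centring (open), with mean and SD as bars (n = 3). Loess holds every pair between -0.003 and 0.025, and median centring spreads them from -0.55 to 0.16.

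Within a group the members' ratios scattered more widely than those of other probes, which are largely dim. The SD across the members of a pair was 0.16 to 0.31, which was 1.23 to 1.52 times the SD across the other probes of the same pair. NonIschemic pair 2 was the widest at 0.31, with 4 members beyond 2-fold, and PreC pair 3 the narrowest. The median absolute ratio over IR of the members was 0.10 in NonIschemic, 0.07 in PreC, 0.10 in PostC and 0.08 in Post30. In other probes it was 0.05, 0.05, 0.06 and 0.05. The 300 probes next in rank gave 0.09, 0.07, 0.10 and 0.06, and the 600 after those 0.09, 0.06, 0.11 and 0.07. Ratios of this size were thus not particular to the members. Mean ratios beyond 1.5-fold were found for 4 of 300 members in NonIschemic, 1 in PreC, 2 in PostC and 5 in Post30. As shares these were 1.33%, 0.333%, 0.667% and 1.67%, against 0.285%, 0.236%, 0.112% and 0.155% of other probes. All of these members were below IR except the 1 in PreC.

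The extremes are named here after their values were seen. The member of rank 209 had the highest mean ratio in PreC, 1.00 ± 0.76 (SD, n = 3), from pairs at 1.25, 1.61 and 0.15. The same probe lay at 0.48 ± 0.54 in PostC and -0.28 ± 0.32 in Post30. Its number 3 pair was the lowest of each conditioned group, so that the groups overlapped. The member of rank 214 had the lowest mean ratio in NonIschemic, -1.29 ± 0.75, from pairs at -0.44, -1.86 and -1.57.

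The dye orientations of a pair are hybridisations of the same RNA with the labels exchanged, so their agreement shows how well a ratio repeats. Across members the orientations correlated with r = 0.19 to 0.73 in the 12 pairs, with a median of 0.42. Across the other probes r was 0.03 to 0.45, with a median of 0.23, and it was lower than in the members in 11 of 12 pairs. The exception was PreC pair 2. The points share array and intensity range, and the other probes are largely dim, so r is a description. Among members, agreement was lowest for the brightest. The median r over pairs was 0.29 for the first 100 ranks, 0.50 for the second 100 and 0.65 for the third 100. It was 0.57 for the 300 probes next in rank and 0.46 for the 600 after those.

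**Figure D3:**
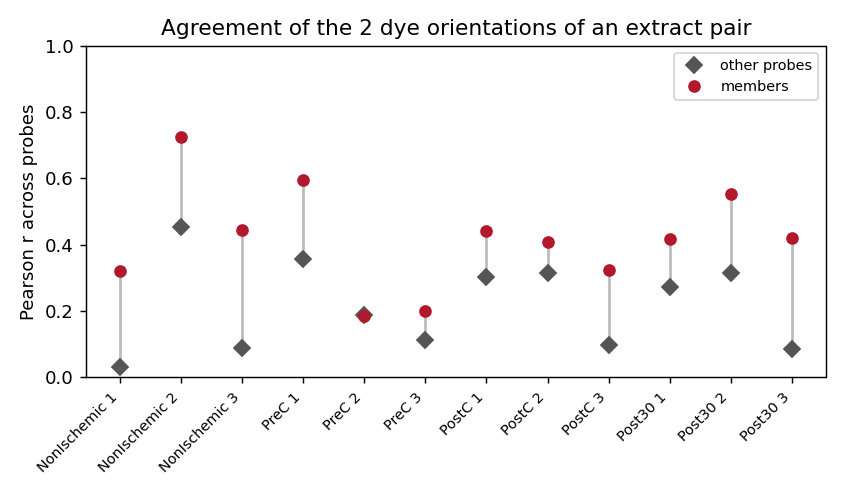
Pearson r across probes between the log2 ratios of both dye orientations (vertical axis) for each of the 12 extract pairs, for the 300 members and for the other probes. Members lie above the other probes in 11 of 12 pairs, from 0.19 to 0.73.

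Part of the disagreement was a standing effect of the dye on single probes. The effect was taken as the ratio with the group in Cy5 minus that with the group in Cy3, divided by 2. Its median absolute size was 0.07 in members and 0.04 in other probes. In the 300 probes next in rank it was 0.07 and in the 600 after those 0.05. In 126 of 300 members (42%) it had the same sign in all 12 pairs, against 7.48% of other probes. Its largest value was 0.49, at rank 3, where it exceeded every group's mean ratio, and averaging the orientations cancels it. Its size in members was close to that of their mean ratios over IR.

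The comparisons with IR asked which of these transcripts differed after each protocol or outside the ischemic zone. The IR channel chose the members and is also the denominator of these ratios, so the counts are descriptions. Drawing the list from the IR channel of the 18 arrays of the other groups changed at most 1 member and gave the same counts of adjusted calls. With lists this alike the counts could hardly differ, so they do not show that the choice is without effect. With limma and Benjamini-Hochberg adjustment over all probes, 0 of 300 members passed an adjusted p of 0.05 in PreC, where 0% of all 16459 probes did. In PostC 0 passed (0% of all probes), and in NonIschemic 0 passed (0% of all probes). In Post30 2 members passed, both lower than IR, where 0.0729% of all probes passed and 0.0668% did so downward. When the 3 conditioned groups were averaged, 13 members (4.33%) passed, where 0.972% of all probes did. The 300 probes next in rank gave 3.33% and the 600 after those 4%, so such a share was not particular to the members. This fit takes the conditioned pairs as independent, although same-numbered pairs deviated together (r = 0.437 to 0.667 over members). Its p-values for the average are therefore likely too small. Of the 13, 6 were higher than IR (0.28% of all probes) and 7 lower (0.693% of all probes). Blocking on the replicate number gave counts of 2 in PreC, 24 in PostC, 5 in Post30, 27 in NonIschemic (9 higher, 18 lower) and 44 for any conditioning. In the same fit 0.243%, 2.31%, 0.632%, 2.34% and 3.97% of all probes passed, and its p-values against IR are too small.

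At an unadjusted limma p under 0.05 the members' counts were 31 for PreC, 100 for PostC, 36 for Post30 and 86 for NonIschemic. As shares these were 10.3%, 33.3%, 12% and 28.7%, against 6.84%, 13.6%, 7.05% and 12.5% of all probes. For any conditioning the share was 33.7% of members and 15.1% of all probes. In PostC, 52 members were higher (5.83% of all probes) and 48 lower (7.73%). In NonIschemic, 45 were higher than IR (5.84% of all probes) and 41 lower (6.61%). Such shares were not particular to the 300 members. The 300 probes next in rank gave 29.7% for PostC and 30.3% for NonIschemic, and the 600 after those gave 32.3% and 27.3%.

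**Figure D4:**
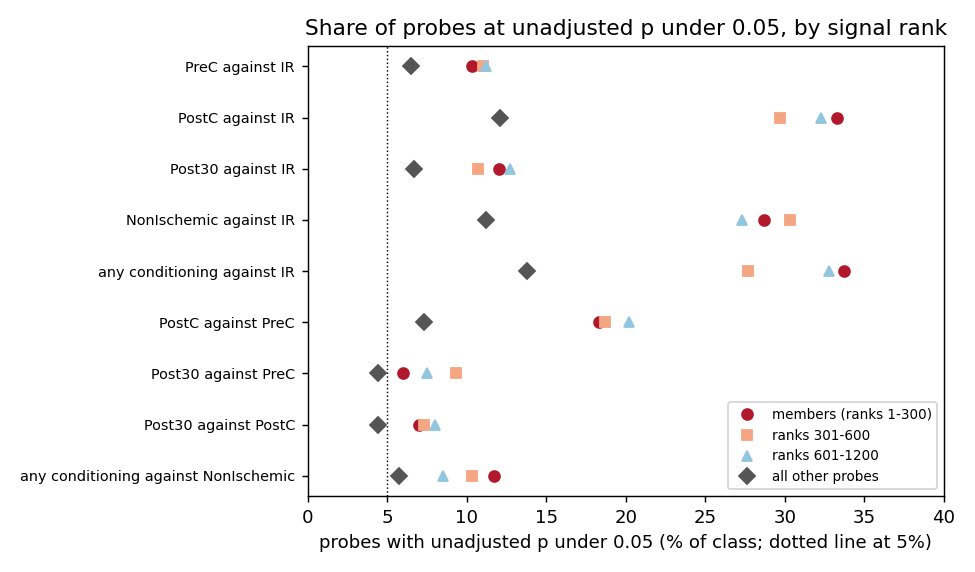
Share of probes with an unadjusted limma p under 0.05 (horizontal axis, % of the class) in each of the 9 comparisons, for the members, the next ranks and all other probes, with a dotted line at 5%. In PostC against IR the members lie at 33.3%, the 2 classes next in rank at 29.7% and 32.3%, and the remaining probes at 12.1%.

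Over the conditioned groups the median absolute log2 change of the 13 was 0.20, the lowest change was -0.56 and the highest 0.20. In NonIschemic, which was set against IR RNA as well, the mean ratios of the 7 lower members lay between -1.08 and -0.05 and those of the 6 higher between 0.07 and 0.29. The sign was shared by all 9 conditioned pairs in 3 of the 13, by 8 pairs in 7 and by 7 pairs in 3. Over all 300 members 12 kept 1 sign in 9 of 9 pairs, 5 above 0 and 7 below it, which is 4% of members against 1.93% of all probes. Of the 13, only 3 still passed with a random replicate block, which took 1 correlation of 0.0782 for all probes. Fits that left out 1 conditioned pair called between 3 and 13 members. Without PreC pair 1, PostC pair 1 or Post30 pair 1 the counts were 5, 8 and 5, of which 4, 7 and 5 were among the 13. Without PreC pair 2, PostC pair 2 or 3, or Post30 pair 2 or 3, 3 members were called each time, all of them among the 13. Without PreC pair 3, 13 were called, 10 higher and 3 lower, and only 6 of these were among the 13. Under median centring 192 members (64%) passed, 0 higher and 192 lower, where 21.99% of all probes passed. Without background subtraction 25 members (8.33%) passed, where 7.19% of all probes did. With an unscaled offset of 50 before log2, 0 passed with limma. In that setting 99 of 300 members had an unadjusted p under 0.05, where 14.98% of other probes did.

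Among the passing members with 1 sign in all 9 conditioned pairs, only Mm::M200016236 (rank 71) rose. Its ratios were 0.27, 0.08 and 0.08 in PreC, 0.32, 0.32 and 0.27 in PostC, and 0.19, 0.16 and 0.06 in Post30. All 9 values were above IR, and every PostC value lay above every Post30 value. The change over conditioning was 0.19 (SE 0.03, adjusted p = 0.0154 with limma), and it was -0.03 under median centring. It passed in all 9 fits that left out 1 pair (adjusted p from 0.0208 to 0.0497 with limma). It did not pass with the offset of 50 (0.0625) or with number 2 of every group left out (0.0647). In NonIschemic the probe lay at 0.16, 0.02 and 0.02.

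Next in size was Mm::M200000622 (rank 12), which did not pass. Its ratios were 0.38, 0.32 and 0.06 in PreC, 0.18, 0.22 and 0.16 in PostC, and 0.18, 0.06 and 0.11 in Post30, and the groups overlapped. The change over conditioning was 0.18 (SE 0.046, adjusted p = 0.0764 with limma), and -0.04 under median centring. It passed in the authors' values and with unsubtracted intensities (adjusted p = 0.0498 in both) and with the replicate block (0.0142), and it missed the threshold in all 9 fits that left out 1 pair (0.0517 to 0.196). NonIschemic pairs lay at 0.39, 0.16 and -0.13.

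Of the passing probes below IR in all 9 pairs, Mm::M200002930 (rank 233) fell most. Its ratios were -0.05, -0.16 and -0.41 in PreC, -0.18, -0.64 and -0.72 in PostC, and -0.34 and -0.54 in Post30 pairs 2 and 3. Post30 pair 1 lay just under 0. Number 1 was the smallest fall in each conditioned group, and the groups overlapped. The change was -0.34 (SE 0.064, adjusted p = 0.0359 with limma), but it did not pass in 7 of the 9 fits that left out 1 pair (adjusted p from 0.0256 to 0.0914).

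A smaller and more even fall was seen for Mm::M200001435 (rank 244). Its ratios were -0.11, -0.09 and -0.04 in PreC, -0.16, -0.22 and -0.14 in PostC, and -0.16, -0.12 and -0.06 in Post30. All PostC pairs lay below all PreC pairs. The change was -0.12 (SE 0.027, adjusted p = 0.0481 with limma), and it was lost in all 9 fits that left out 1 pair (adjusted p from 0.0624 to 0.128).

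The other passing members are given by rank, all with adjusted p-values from limma. Lower than IR over conditioning were rank 87 at -0.55, rank 237 at -0.46, rank 39 at -0.26 and rank 18 at -0.24, with adjusted p from 0.0154 to 0.0464. Rank 237 lay at 0.03, -0.64 and -0.34 in PreC, -0.36, -0.24 and -0.68 in PostC and -0.85, -0.26 and -0.83 in Post30, while its NonIschemic pairs lay between -0.33 and -0.01. Rank 87 was low outside the ischemic zone as well, at -0.65, -1.82 and -0.75. Its conditioned pairs lay between -1.21 and 0.23, so that its groups overlapped.

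Higher than IR over conditioning were ranks 16, 48, 258, 106 and 130, with changes of 0.20, 0.18, 0.17, 0.16 and 0.15 and adjusted p from 0.0427 to 0.0496 with limma. Each was above IR in 8 of 9 conditioned pairs. At rank 16 the PostC pairs were 0.47, 0.32 and 0.24 and the Post30 pairs 0.46, 0.15 and 0.16, against 0.11, 0.08 and -0.20 in PreC. Every PostC and Post30 value of this probe was above every PreC value. At rank 258 the NonIschemic pairs were 0.37, 0.27 and 0.23, and the conditioned pairs lay between -0.05 and 0.25.

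**Figure D5:**
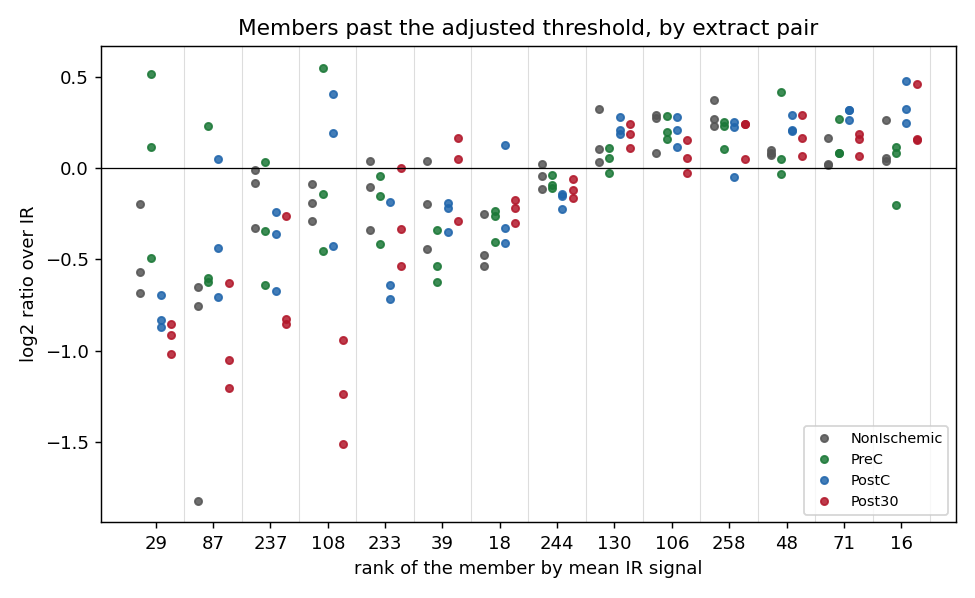
Log2 ratio over IR (vertical axis) in each extract pair for the 13 members that passed for any conditioning and for rank 108, which passed for Post30 alone, ordered by mean change over conditioning. The Post30 pairs of rank 108 lie between -0.94 and -1.51, and those of rank 29 between -0.86 and -1.02.

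After delayed conditioning 2 members fell below IR, at ranks 108 and 29. At rank 108 the Post30 pairs lay at -0.94, -1.24 and -1.51. Its PreC pairs were 0.55, -0.14 and -0.45, its PostC pairs 0.41, 0.19 and -0.43, and its NonIschemic pairs -0.19, -0.29 and -0.09. The 3 Post30 values were below all 9 others. On the 6 single Post30 arrays the ratio was -0.88 to -1.56, in both dye orientations, and the raw signal was 48.5 to 104 units in the Post30 channel against 133 to 270 in the IR channel. The change from IR was -1.23 (SE 0.16, adjusted p = 0.00684 with limma). It did not pass without Post30 pair 2 or 3 (adjusted p = 0.0609 and 0.158) and did without Post30 pair 1 (0.0252).

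At rank 29 the fall was found after both postconditioning protocols. The Post30 pairs lay at -0.91, -0.86 and -1.02 and the PostC pairs at -0.83, -0.87 and -0.70. The PreC pairs were spread from -0.49 over 0.12 to 0.52, and the NonIschemic pairs were -0.20, -0.68 and -0.57. Every PostC and Post30 value was thus below every other value of this probe. The change from IR was -0.93 in Post30 (adjusted p = 0.0114 with limma) and -0.80 in PostC, where it did not pass (adjusted p = 0.0537 with limma). The Post30 call was lost without each of the 3 Post30 pairs in turn (adjusted p from 0.0649 to 0.167). Over all conditioned groups the change was -0.56 (SE 0.076, adjusted p = 0.0104 with limma), and it passed in all 9 fits that left out 1 pair.

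In PreC the member with the smallest p against IR was rank 39, at -0.62, -0.53 and -0.34, or -0.50 (SE 0.091, adjusted p = 0.612 with limma). PostC pairs of this probe were at -0.19, -0.35 and -0.22 and Post30 pairs at 0.17, -0.29 and 0.05. PreC and Post30 did not overlap in this probe, but their difference did not pass (adjusted p = 0.973 with limma).

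Next, protocol was set against protocol, in differences that the choice of members does not favour, since the rule weighted every array alike. Postconditioning against preconditioning gave 0 of 300 members past the adjusted threshold with limma (0% of all probes). At an unadjusted p under 0.05 there were 55 members (18.3%), against 8.19% of all probes. Of the 55, 19 were higher in PostC (3.51% of all probes) and 36 lower (4.68% of all probes). The 300 probes next in rank gave 18.7% and the 600 after those 20.2%, both at or above the members' share. The smallest p was at rank 29, at -0.85 (95% interval -1.25 to -0.45, adjusted p = 0.563 with limma). With the replicate number as a block, 88 members had an unadjusted limma p under 0.05 for PostC against PreC. Of other probes 10.6% did, and 0 members passed the adjusted threshold.

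Delayed postconditioning differed from preconditioning in 0 members past the threshold (0% of all probes). In the fit without the block there were 18 (6%) at an unadjusted p under 0.05, against 4.67% of all probes. Against postconditioning at 1 min it gave 0 members (0.00608% of all probes) and 21 (7%) at an unadjusted p under 0.05, against 4.65%. In the fit without the block, a protocol difference had a 95% interval of 0.21 on each side for the median member. This sets the size that could be seen in that fit. Same-numbered pairs of the conditioned groups deviated together. With the replicate block, 43 members had an unadjusted limma p under 0.05 for Post30 against PreC and 38 for Post30 against PostC. Of other probes, 6.97% and 6.52% did. In that fit 1 member, rank 108, passed the adjusted threshold in each of these comparisons (0.0122% and 0.0182% of all probes). For it the block gave adjusted p = 0.0115 with limma in both, at differences of -1.21 from PreC and -1.29 from PostC. Without the block these were 0.384 and 0.225. In the blocked fit without number 1 they were 0.224 and 0.076, without number 2 0.0474 and 0.0837, and without number 3 0.007 and 0.0069.

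In the non-ischemic region the member with the smallest p against IR was rank 185. Its pairs lay at -0.24, -0.60 and -0.38, a difference of -0.41 (SE 0.07, adjusted p = 0.0825 with limma), and it did not pass. Its PreC, PostC and Post30 pairs lay between -0.37 and -0.02. Of the 3 brightest probes, rank 1 had -0.28, -0.10 and -0.22 in NonIschemic and between -0.20 and 0.16 after conditioning. Rank 2 had -0.16, -0.08 and 0.01 in NonIschemic, and rank 3 had -0.25, -0.42 and -0.50. Without NonIschemic pair 2, 35 members had an unadjusted p under 0.05 against IR in place of 86, and the share of other probes fell with them, from 12.2% to 6.03%.

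The mean of the conditioned groups was set against the non-ischemic region, and 0 members passed with limma (0% of all probes). At an unadjusted p under 0.05 there were 35 (11.7%), against 6.02% of all probes. The smallest p was at rank 131, which was lower after conditioning by a log2 difference of -0.36 (95% interval -0.57 to -0.15, adjusted p = 0.807 with limma). Its NonIschemic pairs lay at 0.25, 0.50 and 0.16, and its conditioned pairs between -0.40 and 0.17. With the replicate block 1 member passed, higher after conditioning, where 0.0425% of all probes passed.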

How the data were processed

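The labels name 24 two-colour arrays with dye swaps. For 17664 spots the authors deposited, per the file headers, each channel's foreground and background intensity, plus a quality mark. Total RNA was amplified before labelling, per the labels' protocols; no source used here names the image software. A deposited table also gives the authors' own log2 ratios, with column medians of -0.013 to 0.0083. Turned in sign, it matched the unsubtracted, loess-normalized ratio computed here (r at least 0.99997, slope 1.00), which settles its scale; its software stays unknown.

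Background was corrected by normexp with offset 1.03, an offset of 50 scaled from 65535 to the highest intensity of 1356, and arrays were normalized by global loess (weight 0 for the 1009 control and empty spots), with limma 3.58.1 in R 4.3.3. The 12 probes printed on 17 spots were averaged. Group means of the 12 extract pairs were fitted with lmFit and eBayes (8 residual degrees of freedom), and p-values were adjusted over all probes in each of 9 comparisons. The number of arrays limits the precision.

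File channel 1 was taken as channel 1 of the labels (IR), under which Cy3 had the higher background on 24 of 24 arrays. Between groups, arrays of 1 orientation had r from -0.0007 to 0.578. Over all probes, deviations of same-numbered pairs correlated with r = 0.216 to 0.396 in 9 of 9 pairs of conditioned groups. The label numbers therefore pair these. With NonIschemic r was over 0.1 in 6 of 9 pairs. Over the members r was 0.437 to 0.667 among conditioned groups and -0.046 to 0.541 with NonIschemic. A fixed block leaves the shared deviation in the group means, so its p-values against IR are too small. The fit without a block takes the conditioned pairs as independent, so its p-values for their average against IR are likely too small as well. Labels do not say whether numbers are separate hearts or pools, so p-values reflect the spread among these samples alone, and it may be technical. The ratio against 0 leaves out the spread of IR hearts.

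Members and settings were chosen with earlier results of these data known. Statements that all values of a group lie above or below those of another were made after seeing them and carry no test. The IDs printed are the members with the largest change over conditioning among those past an adjusted p of 0.05 with 1 sign in 9 pairs, filled up by size; other members are named by rank: ranks 1 to 3, those beside the threshold, the smallest p of each comparison, and those named after their values were seen.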

Additional observations from a re-analysis of the deposited data

How the results depend on the processing

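Counts of members called follow 1 order: PreC, PostC, Post30 and NonIschemic against IR, then any conditioning against IR. The reported counts are 0, 0, 2, 0 and 13, where 0%, 0%, 0.0729%, 0% and 0.972% of all probes passed. Unsubtracted intensities and the authors' values each gave 0, 2, 2, 0 and 25. For unsubtracted intensities the shares of all probes were 0%, 0.261%, 0.194%, 0% and 7.19%. The counts were 0, 0, 0, 0 and 0 with the offset of 50. Median centring gave 1, 38, 17, 3 and 192, where 0.00608%, 3.12%, 1.09%, 0.243% and 21.99% of all probes passed. The replicate block gave 2, 24, 5, 27 and 44, against 0.243%, 2.31%, 0.632%, 2.34% and 3.97% of all probes. With the random replicate block there were 0, 2, 2, 0 and 3, against 0%, 0.194%, 0.085%, 0% and 0.261%. Leaving out number 2 of every group, chosen after seeing the data, gave 0, 2, 1, 0 and 4. The shares of all probes were then 0.0243%, 0.529%, 0.128%, 0% and 0.711%. Leaving out 1 pair gave 0 to 1, 0 to 0, 0 to 1, 0 to 0 and 3 to 13. Between protocols the replicate block gave 0 for PostC against PreC, 1 for Post30 against each of the others and 1 for any conditioning against NonIschemic. Of all probes, 0%, 0.0122% (Post30 against PreC), 0.0182% (Post30 against PostC) and 0.0425% passed. Leaving out 1 pair gave 0 to 1 for PostC and for Post30 against PreC, and 0 to 0 for Post30 against PostC and for any conditioning against NonIschemic. Other ways to draw the list, and a test of probes above median intensity only, moved no count by over 1.5 times. The cause of these changes was not tested.

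The members' median ratio in NonIschemic, PreC, PostC and Post30 was -0.022, -0.218, -0.172 and -0.235 under median centring. In NonIschemic it was 0.0124 without background subtraction, 0.0125 in the authors' values, 0.0457 with the offset of 50 and 0.0172 with members drawn from the group's channel. In PostC the last of these settings gave 0.0179, and the offset of 50 gave 0.0345 in PostC and 0.0208 in Post30. Leaving out 1 pair gave 0.008 to 0.0108 in NonIschemic, 0.0101 to 0.0238 in PreC, 0.0059 to 0.0127 in PostC and -0.00015 to 0.0119 in Post30. The log2 share of signal was -0.0496 in PreC, -0.00696 in PostC and -0.0104 in Post30 without background subtraction, and 0.0278 in PostC with members from the group's channel. Leaving out 1 pair gave 0.0094 to 0.0479 in NonIschemic, -0.014 to 0.0205 in PreC, 0.0208 to 0.0248 in PostC and -0.0024 to 0.014 in Post30. The median spread between pairs was 1.27 times as large in members as in other probes, averaged over groups. It was 1.09 times in the authors' values and also without background subtraction, 1.58 times under median centring and 16.4 times with the offset of 50, which shrinks the ratios of dim probes by its construction.

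Under median centring Mm::M200016236 had -0.0317 and Mm::M200000622 -0.0438, opposite in sign to the values reported. The latter passed in 3 other settings, which were no background subtraction, the authors' values and the replicate block. The spread of 3 pairs per group and the lack of gene names limit what these values can show.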
